A study of Homo sapiens with 8 samples.

Results

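The 9 genes described here, FKBP5, ZBTB10, TMPRSS2, ELL2, ACSL3, TPD52, SORD, ABCC4 and NDRG1, are known targets of the androgen receptor. They were taken by name from the 56638 entries of the deposited tables, and 8 of the 9 had a mean of at least 10 normalized counts over the libraries. RNA sequencing was done on A375 cells, an established human malignant melanoma line, transfected with the plasmid pcDNA3.1(-). The plasmid carried full-length SLNCR1 (group SLNCR1), the conserved region of SLNCR1 by itself (group conserved), SLNCR1 lacking that region (group delta-conserved), or no insert (group vector), with 2 libraries per group. All groups were grown in medium with 10% fetal bovine serum, transfected by lipofection at 24 h after seeding and harvested 48 h later, and the labels name no androgen treatment. The cells are of 1 line and were harvested without a selection step named in the labels, so untransfected cells may be part of each library. Whether libraries of the same group are separate cultures is not in the labels, so the spread between libraries on which p-values rest may be technical.

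Androgens act through a nuclear receptor that chaperones of the HSP90 family hold ready in the cytoplasm. The hormone-bound receptor enters the nucleus and binds paired copies of the hexamer AGAACA, and its activity is best known from prostate epithelium, where it drives secretion, lipid synthesis and growth. The glucocorticoid receptor recognises the same DNA element, and several targets, FKBP5 among them, answer to both hormones. SLNCR1 is a long noncoding RNA of melanoma whose conserved region has been described to bind the androgen receptor, which makes the response of its target genes a question of this design.

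The libraries held 8222868 to 12015394 reads assigned to genes. Whole reads of each library were recovered from the group means, and libraries are named a (the deeper in its group) and b. LINC00511, whose GENCODE release 29 model spans the SLNCR1 gene of RefSeq, stood at 864.5 to 1155 normalized counts in the 6 construct libraries, against 621.0 and 627.5 in the vector libraries. It was lower in the SLNCR1 than in the conserved libraries (log2 difference -0.32, limma adjusted p = 0.0399), and which exons this entry counts was not stated. On the first principal component (41.2% of the variance) the SLNCR1 and delta-conserved libraries lay at 14.29 to 26.95, against -20.3 to -14.09 for the conserved and vector libraries. Component 2 held 16.0% and set SLNCR1 library b (24.03) apart from all others (-18.32 to 4.96). Limma values for SLNCR1 are therefore given with that library and without it, while the authors' group comparisons cannot be split by library. A fit without 1 library leaves its group a single library, which adds nothing to the estimate of spread. A limma p from such a fit does not measure the spread in that group. Of 11 melanoma markers 9 reached a mean of 10, SOX10 among them at a mean of 3410 normalized counts, while TYR (0.584) and DCT (2.06) were near 0. The prostate secretory markers KLK3 (0.546) and MSMB (0.139) were also near 0, and the prostate-associated genes SLC45A3 (954) and HOXB13 (219) were detected. Summed melanoma markers were at 14230 to 14450 normalized counts in SLNCR1, 12680 to 13330 in conserved, 14470 to 14820 in delta-conserved and 12040 to 13180 in vector libraries. Summed over 6 fibroblast markers the counts were 262.7 to 268.7 in SLNCR1, 216.0 to 447.2 in conserved, 401.6 to 403.9 in delta-conserved and 268.0 to 293.2 in vector libraries, and COL3A1 was higher with delta-conserved (log2 fold change 3.66, adjusted p = 2.61e-09 in the authors' deposited table). The part of these markers in the results was not tested.

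Promoters are shown for the receptor's DNA element, by which these genes are known, and for the GC-rich element linked to ZBTB10. RefSeq promoter sequences (GRCh38.p14, 250 bases before to 50 after a start) were matched for 3 of the 9 genes, ABCC4, ACSL3 and FKBP5. The paired androgen response element, AGAACA followed after 3 bases by TGTTCT, was searched on both strands and occurred in 0.00285% of 35116 such promoters and in none of the 3 genes. The hexamer AGAACA on its own occurred in 14.8% of promoters, and among the 3 genes in FKBP5, where its first base was base 1 after an upstream start. It is in capitals in this stretch of the minus strand at chr6:35728566-35728595.
FKBP5 upstream start: caccactaccccAGAACAaactcctacctc
The GC box GGGCGG, a binding element of Sp-family factors, occurred in 45.0% of promoters and in ACSL3 and FKBP5. Its copies, and those of its reverse complement CCGCCC, are in capitals in the 250 bases before 1 start of each gene, ACSL3 at chr2:222860786-222861035 on the plus strand and FKBP5 at chr6:35688916-35689165 on the minus strand.
ACSL3: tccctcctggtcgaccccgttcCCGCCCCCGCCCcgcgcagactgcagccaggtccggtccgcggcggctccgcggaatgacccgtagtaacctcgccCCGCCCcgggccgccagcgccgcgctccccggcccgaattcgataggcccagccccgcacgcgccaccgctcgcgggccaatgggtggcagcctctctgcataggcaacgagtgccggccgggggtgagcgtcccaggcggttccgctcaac
FKBP5: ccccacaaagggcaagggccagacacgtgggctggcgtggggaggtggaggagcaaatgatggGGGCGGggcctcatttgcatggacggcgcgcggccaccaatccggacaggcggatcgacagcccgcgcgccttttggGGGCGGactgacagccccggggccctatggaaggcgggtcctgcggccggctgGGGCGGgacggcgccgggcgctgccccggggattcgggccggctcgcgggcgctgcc
The core hypoxia element ACGTG, searched because NDRG1 is known to respond to hypoxia, occurred in 21.4% of promoters and among the 3 genes in FKBP5. Each of the 250-base stretches holds 3 GC boxes, and their GC content was 75.2% for ACSL3 and 74.8% for FKBP5. A match describes the letters in a window and shows no binding. The paired element is so rare in such windows that its absence from 3 genes says nothing about binding.

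In vector cells expression per length gave the 8 expressed genes an order with overlaps, and TMPRSS2 stood at 0.0 RPKM. The scale was reads divided by exon length and by the library's assigned reads (RPKM, exon lengths from GENCODE release 29). The annotation release behind the deposited reads is not given, so levels of different genes compare only approximately. The highest level was that of ACSL3, 26.7 ± 0.50 RPKM (SD, n = 2), followed by NDRG1 at 18.2 ± 2.8 RPKM. ELL2 stood at 12.4 ± 1.0 RPKM and TPD52 at 11.5 ± 0.45 RPKM, and the libraries of these 2 neighbours overlapped. ABCC4 followed at 9.92 ± 0.50 RPKM. SORD at 7.39 ± 0.23 RPKM and ZBTB10 at 7.14 ± 0.27 RPKM overlapped as well, and FKBP5 was the lowest of the expressed genes at 4.11 ± 0.22 RPKM. In SLNCR1 cells ZBTB10 averaged 3.76 ± 1.0 RPKM, where its libraries overlapped those of FKBP5 at 3.66 ± 0.37 RPKM.

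Of the 9 genes, ZBTB10 fell and NDRG1 rose, and both changes were seen with delta-conserved. ZBTB10 fell with full-length SLNCR1 and with delta-conserved and did not pass with the conserved region. NDRG1 rose with delta-conserved, and did not pass with the other 2 constructs. At an adjusted p under 0.05 in the authors' deposited table for SLNCR1, 1 of the 9 genes passed, as a lower one, where 0.882% of 33548 entries passed and 0.844% were lower. With the conserved region 0 of 9 passed in the authors' deposited table, where 0.0175% of 34347 entries passed, and 0 of the 8 genes with a p had an unadjusted p under 0.05. With delta-conserved 1 of the 9 was higher and 1 lower in the authors' deposited table, where 2.26% of 34744 entries passed, 1.11% higher and 1.14% lower. By limma TPD52 was higher with delta-conserved as well. The median log2 fold change over the 8 expressed genes in the authors' deposited tables was 0.09 (SLNCR1), 0.11 (conserved) and 0.14 (delta-conserved), beside medians of 0.0037, 0.0024 and -0.0055 over all genes with a mean of at least 10. The 3 comparisons share the vector libraries. In bulk RNA, a change in the number of cells that express a gene and a change in RNA per cell cannot be told apart.

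**Figure D1:**
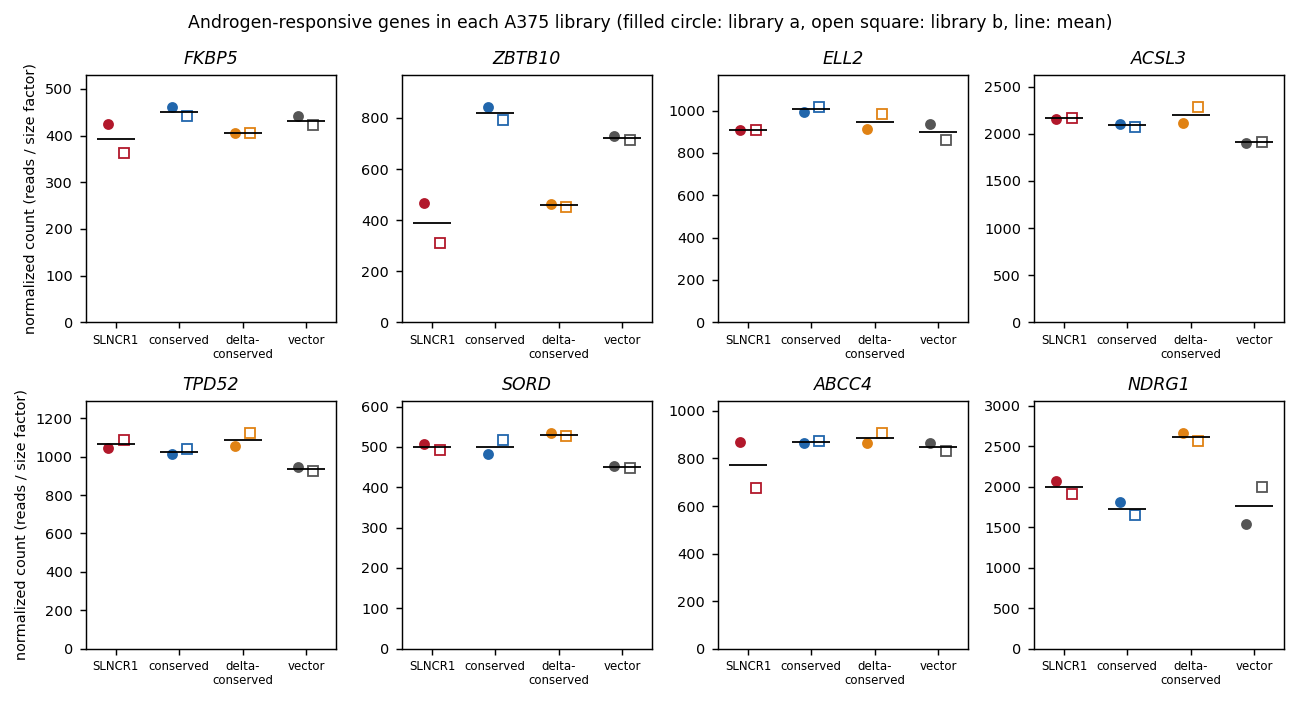
Normalized counts (reads divided by size factor) of the 8 expressed genes in each library, with groups SLNCR1, conserved, delta-conserved and vector from left to right, library a as a filled circle, library b as an open square and the group mean as a line. ZBTB10 lies at 310.2 to 466.0 in the SLNCR1 and delta-conserved libraries and at 714.2 to 843.6 in the conserved and vector libraries.

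FKBP5, a co-chaperone that sits with HSP90 in steroid receptor complexes, had 423.7 and 363.1 normalized counts in SLNCR1 libraries a and b, 461.4 and 441.0 in the conserved libraries, 406.1 and 405.4 in the delta-conserved libraries and 441.3 and 422.9 in the vector libraries. SLNCR1 library b was the lowest, and the SLNCR1 and vector libraries overlapped. FKBP5 passed in none of the 3 deposited tables, with log2 fold changes in the authors' deposited tables of -0.13 (SLNCR1), 0.05 (conserved) and -0.09 (delta-conserved). By limma the 95% interval of the SLNCR1 difference from vector ran from -0.33 to 0.05 on the log2 scale. The log2 difference depended on the library left out. It was -0.03 without SLNCR1 library b and -0.25 without SLNCR1 library a.

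ZBTB10 encodes a BTB-domain zinc finger protein that represses transcription from GC-rich promoter elements. It had 466.0 and 310.2 normalized counts in SLNCR1 libraries a and b, 843.6 and 793.9 in conserved libraries, 464.0 and 452.1 with delta-conserved and 728.7 and 714.2 with vector. All 4 SLNCR1 and delta-conserved libraries were below both vector libraries and both conserved libraries were above them. ZBTB10 averaged 388.1 ± 110.0 in SLNCR1 cells and 721.5 ± 10.3 in vector cells (SD, n = 2 each), and 458.0 ± 8.41 in delta-conserved cells. In the authors' deposited table the log2 fold change with SLNCR1 was -0.89 (adjusted p = 0.00355). In the authors' deposited table for delta-conserved it was -0.66 (adjusted p = 4.25e-07), and in that for the conserved region 0.17 (adjusted p = 1).

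By limma ZBTB10 passed for the same constructs, but for neither without the variance trend (adjusted p = 0.0808 for SLNCR1 and 0.142 for delta-conserved). Set against vector, SLNCR1 cells differed by -0.92 ± 0.12 (log2, SE; limma adjusted p = 0.000128), delta-conserved cells by -0.65 ± 0.12 (limma adjusted p = 0.00341) and conserved cells by 0.18 ± 0.12 (limma adjusted p = 0.829). Without SLNCR1 library b the fall with SLNCR1 was -0.63, and without library a it was -1.21. Each of these fits leaves SLNCR1 a single library, so only the sizes are given. The fall with delta-conserved kept its size without vector library a (-0.64, limma adjusted p = 0.0666) and without delta-conserved library b (-0.64, limma adjusted p = 0.0575), but did not pass. The exons of ZBTB10 overlap those of AC009812.1 on the opposite strand by 594 of 10216 bases in GENCODE release 29. The library kit does not mark strand, so reads from that stretch cannot be assigned to either gene. A larger share of exon length overlaps another gene in TPD52 (same strand) and in SORD (opposite strand). In ACSL3 and ELL2 a smaller share does, on the opposite strand. The levels and differences of TPD52, SORD, ACSL3 and ELL2 carry the same limit.

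ELL2, a subunit of the super elongation complex that releases paused RNA polymerase II, had 910.8 and 910.6 normalized counts in the SLNCR1 libraries, 993.2 and 1018 in the conserved libraries, 912.4 and 982.5 in the delta-conserved libraries and 936.0 and 863.5 in the vector libraries. Both conserved libraries were above both vector libraries, and the other 2 constructs overlapped vector. Without SLNCR1 library b the SLNCR1 difference from vector was 0.02 on the log2 scale. The log2 difference of the conserved region from vector was 0.16 ± 0.07 (SE), with an unadjusted limma p of 0.0363 and an adjusted p of 0.829.

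ACSL3, SORD and TPD52 had normalized counts a little above vector in the construct libraries, and TPD52 passed by limma with delta-conserved only. ACSL3, which activates long-chain fatty acids to their acyl-CoA esters, had 2158 and 2169 normalized counts with SLNCR1, 2099 and 2077 in conserved libraries, 2115 and 2286 with delta-conserved and 1904 and 1917 with vector. SORD, which oxidises sorbitol to fructose, had 506.2 and 493.4 with SLNCR1, 481.9 and 517.9 in conserved libraries, 534.1 and 526.6 with delta-conserved and 452.6 and 447.7 with vector. TPD52, a vesicle and lipid-droplet protein whose gene is gained in many prostate tumours, had 1046 and 1086 with SLNCR1, 1012 and 1041 in conserved libraries, 1055 and 1123 with delta-conserved and 945.7 and 925.7 with vector. In each of these 3 genes all 6 construct libraries lay above both vector libraries. This held for 3 of the 8 expressed genes and for 9.03% of 16067 genes, and it rests on the same 2 vector libraries throughout.

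The size of these differences was small. With delta-conserved the log2 difference from vector was 0.20 ± 0.07 (SE) for ACSL3 (limma adjusted p = 0.0553), 0.22 ± 0.07 for TPD52 (limma adjusted p = 0.0487) and 0.24 ± 0.08 for SORD (limma adjusted p = 0.0634). TPD52 passed in 6 of 16 other settings, and its limma adjusted p reached 0.366 without delta-conserved library b. None of the 3 genes passed in the authors' deposited table for delta-conserved, with adjusted p-values of 0.223 for ACSL3, 0.335 for TPD52 and 0.539 for SORD. For full-length SLNCR1 the log2 differences were 0.18 (ACSL3), 0.19 (TPD52) and 0.15 (SORD), and without SLNCR1 library b they were 0.17, 0.16 and 0.17. For the conserved construct they were 0.13, 0.13 and 0.15. None of these passed.

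**Figure D2:**
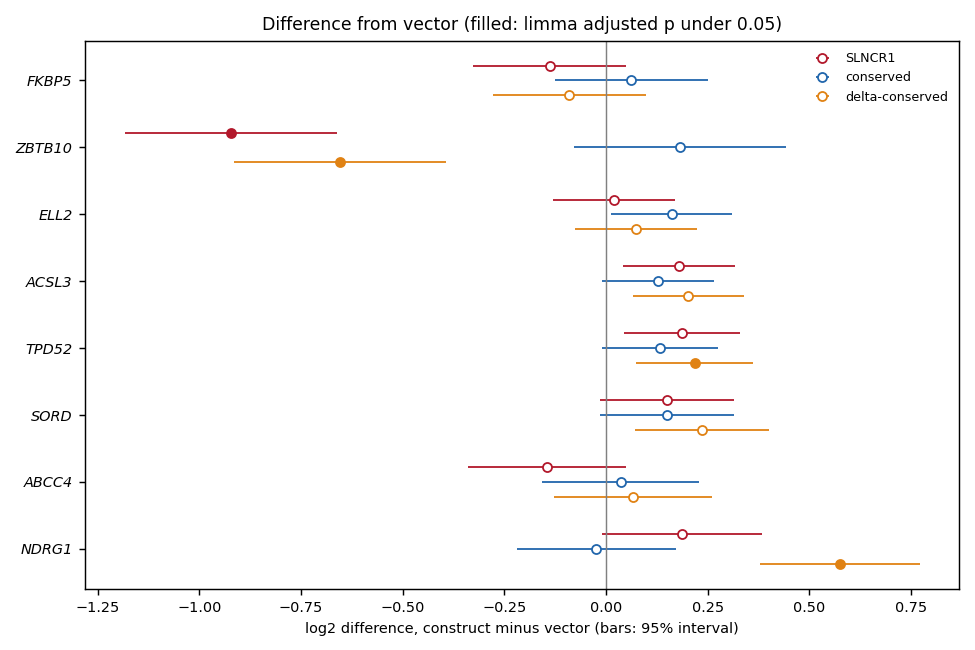
Log2 difference of each construct from vector for the 8 expressed genes (limma, points with 95% intervals, filled where the adjusted p was under 0.05), with SLNCR1, conserved and delta-conserved from top to bottom within a gene. ZBTB10 lies at -0.92 with SLNCR1 and -0.65 with delta-conserved, and NDRG1 at 0.57 with delta-conserved. The intervals of FKBP5, ELL2, SORD, ABCC4 and NDRG1 hold 0 with SLNCR1.

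ABCC4, an efflux pump for cyclic nucleotides and drugs also known as MRP4, had 868.6 and 674.4 normalized counts in SLNCR1 libraries a and b, 863.2 and 872.9 in the conserved libraries, 866.8 and 906.7 in the delta-conserved libraries and 863.2 and 830.6 in the vector libraries. SLNCR1 library b was the lowest of the 8 and library a lay above both vector libraries. The log2 difference of SLNCR1 from vector was -0.15 ± 0.09 (SE, limma adjusted p = 0.321). It changed sign with the library left out, at 0.03 without library b and -0.33 without library a.

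NDRG1 encodes a cytoplasmic protein induced in differentiation, by hypoxia and by androgen. It had 2078 and 1917 normalized counts in the SLNCR1 libraries, 1808 and 1646 in the conserved libraries, 2664 and 2562 in the delta-conserved libraries and 1543 and 1993 in vector libraries a and b. Both delta-conserved libraries were above the other 6, and the vector libraries were themselves far apart. NDRG1 averaged 2613 ± 71.7 in delta-conserved cells and 1768 ± 318.0 in vector cells (SD, n = 2 each). In the authors' deposited table for delta-conserved the log2 fold change was 0.56 (adjusted p = 0.0152), and by limma it was 0.57 ± 0.09 (SE, adjusted p = 0.00107). The difference was 0.39 without vector library a and 0.76 without vector library b. With SLNCR1 it was 0.19 (limma adjusted p = 0.199), at 0.0071 without vector library a (limma adjusted p = 0.977), 0.37 without vector library b (limma adjusted p = 0.0205) and 0.24 without SLNCR1 library b (limma adjusted p = 0.151). In the conserved cells it was -0.02 (limma adjusted p = 0.973).

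TMPRSS2, a membrane serine protease whose promoter is fused to ETS-family genes in many prostate tumours, had 1 read in SLNCR1 library b and 0 in the other 7 libraries. A library with 0 reads allows up to 3 reads, which is 2.43 to 3.79 normalized counts, and this covers counting error only. No fold change is given, and a change of TMPRSS2 was not detectable at this depth.

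Between constructs the groups of libraries were compared directly by limma. The conserved region differed from delta-conserved in 2 of 8 genes, where 6.9% of 16067 genes passed, 5.78% higher and 1.12% lower: ZBTB10 was higher by 0.84 ± 0.12 (SE) on the log2 scale (adjusted p = 0.000288), and NDRG1 was lower at -0.60 ± 0.09 (adjusted p = 0.000473). SLNCR1 differed from the conserved region in 1 of 8 genes, where 11.5% passed and 9.44% were lower, with ZBTB10 at -1.10 ± 0.12 (limma adjusted p = 1.23e-05). Without SLNCR1 library b that difference was -0.81. The same fits gave 1 of 8 genes for SLNCR1 against vector, where 11.4% passed and 7.4% were lower. For the conserved region against vector 0 of 8 passed, where 0.00622% of all did. There ELL2 alone of the 8 had an unadjusted p under 0.05, beside 482 higher and 394 lower of 16067 genes. For delta-conserved against vector 3 of 8 passed, where 10.4% of all did, 5.18% higher and 5.24% lower.

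**Figure D3:**
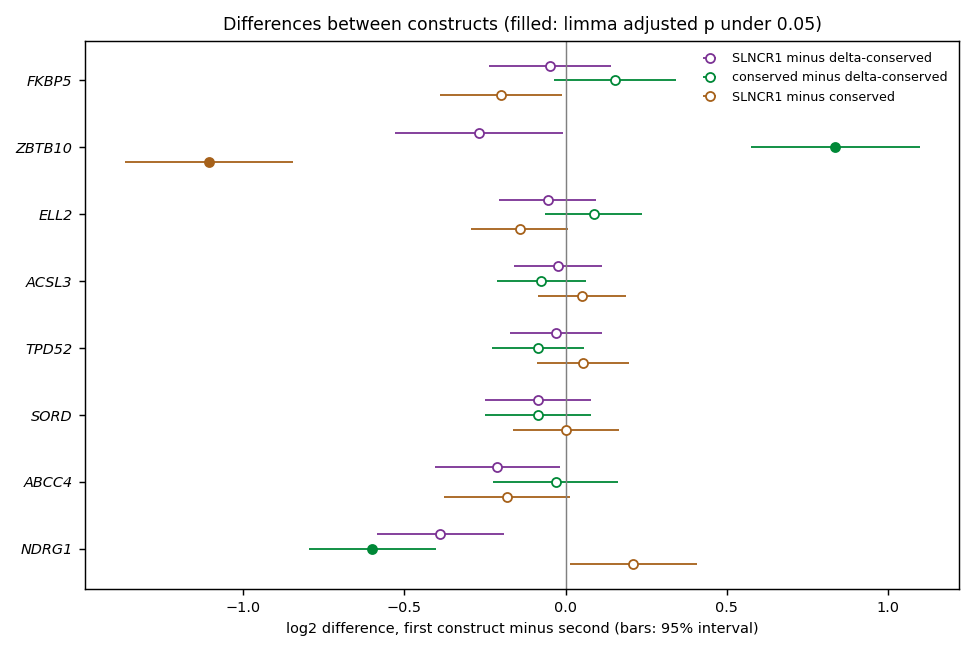
Log2 differences between constructs for the 8 expressed genes (limma, points with 95% intervals, filled where the adjusted p was under 0.05), with SLNCR1 minus delta-conserved, conserved minus delta-conserved and SLNCR1 minus conserved from top to bottom within a gene. ZBTB10 is at 0.84 for conserved minus delta-conserved and at -1.10 for SLNCR1 minus conserved, and no gene is filled for SLNCR1 minus delta-conserved.

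Between SLNCR1 and delta-conserved, 0 of 8 genes passed by limma, as did 0% of all 16067 genes, although at an unadjusted p under 0.05 those lower in SLNCR1 numbered 868 and those higher 416. Without SLNCR1 library a, 136 of all genes passed as higher and 1088 as lower. The median log2 difference of the 8 genes was -0.07, beside -0.0031 over all genes. Of the 8, 3 had an unadjusted limma p under 0.05. NDRG1 was 2078 and 1917 in the SLNCR1 libraries, both below the 2664 and 2562 of delta-conserved. Its log2 difference was -0.39, with a 95% interval of -0.58 to -0.19 and a limma adjusted p of 0.484, and -0.33 without SLNCR1 library b. ZBTB10 had a log2 difference of -0.27 with an interval of -0.53 to -0.01 (limma adjusted p = 0.61), and the libraries overlapped. Without SLNCR1 library b it was 0.02, and without library a -0.56. ABCC4 was at -0.21 (limma adjusted p = 0.584), at -0.03 without library b and -0.39 without library a.

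Further androgen-responsive genes, 91 in number, were measured and 82 of them had a mean of at least 10. With SLNCR1, 1 was higher and 1 lower in the authors' deposited table: PMEPA1, a membrane regulator of receptor and TGF-beta signalling, at a log2 fold change of 0.40 (adjusted p = 0.0307), and ARID5B, a DNA-binding chromatin protein, at -0.55 (adjusted p = 0.00771). None passed in the authors' deposited table for the conserved region. With delta-conserved 7 were higher in the authors' deposited table, among them PMEPA1 at 0.41, the sulfate transporter gene SLC26A2 at 0.39 and the cyclin gene CCND1 at 0.31, and 1 was lower, ARID5B at -0.48. The median log2 fold change of the list was 0.11, 0.05 and 0.11 in the authors' deposited tables for SLNCR1, the conserved region and delta-conserved, beside the medians near 0 over all genes given above. By limma, 5 were higher and 4 lower with SLNCR1, none for conserved, and 14 higher and 1 lower with delta-conserved, beside the shares of all genes given above. Between SLNCR1 and the conserved region 1 of the 82 was higher and 6 were lower by limma, where 11.5% of all genes passed. The kinase gene MAK was at a log2 difference of -1.57 (limma adjusted p = 0.00993). Its counts were low, at means of 9.139 normalized counts with SLNCR1 and 26.7 with the conserved region. The cytokine receptor gene LIFR was at -0.61, ARID5B at -0.54 (limma adjusted p = 0.00132) and the cell cycle kinase gene CDK6 at -0.41. Between the conserved region and delta-conserved 2 were higher and 2 lower, where 6.9% passed. These were ARID5B at 0.46 (limma adjusted p = 0.00653), PMEPA1 at -0.36, the sterol synthesis gene HMGCS1 at 0.28 and SLC26A2 at -0.28. Without SLNCR1 library b, which leaves that group a single library, ARID5B differed from vector by -0.43 and PMEPA1 by 0.31 (log2, limma). Against the conserved region the log2 difference was then -2.19 for MAK, -0.42 for LIFR, -0.40 for ARID5B and -0.20 for CDK6.

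Receptors, chaperones and coregulators were 32 genes, 30 of them with a mean of at least 10. None of them passed in the authors' deposited tables for SLNCR1 and the conserved region, where 0.882% and 0.0175% of all entries passed. With delta-conserved 3 were higher in the authors' deposited table, the chaperone genes HSP90AB1 at a log2 fold change of 0.39, HSPA8 at 0.37 and HSP90AA1 at 0.34, and none was lower, beside 1.11% higher and 1.14% lower of all entries. By limma 5 were higher and 3 lower with SLNCR1, 0 passed for the conserved region, and 8 were higher and 1 lower with delta-conserved, where 11.4%, 0.00622% and 10.4% of all genes passed. SLNCR1 differed from the conserved region in 1 higher and 5 lower genes (11.5% of all genes passed), led by the coactivator genes EP300 at a log2 difference of -0.60, NCOA1 at -0.53 and NCOA2 at -0.44 and the steroid-converting enzyme gene AKR1C3 at 0.35. The conserved region differed from delta-conserved in 1 higher and 2 lower genes (6.9% passed), NCOA1 at 0.37, AKR1C3 at -0.30 and HSPA8 at -0.26. With SLNCR1 library b left out, the limma log2 differences from the conserved region were -0.34 for EP300, -0.31 for NCOA1, -0.24 for NCOA2 and 0.32 for AKR1C3. The glucocorticoid receptor gene NR3C1 had 1426 and 1151 normalized counts in the SLNCR1 libraries, 1639 and 1604 in conserved libraries, 1360 and 1435 with delta-conserved and 1504 and 1418 with vector, and by limma it differed between SLNCR1 and the conserved region only (log2 difference -0.34, adjusted p = 0.0129), and at -0.18 it did not pass without SLNCR1 library b (limma adjusted p = 0.157).

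Glucocorticoid-responsive genes were 25 in number, 23 of them with a mean of at least 10. The circadian repressor gene PER1 was, in the authors' deposited table for SLNCR1, at a log2 fold change of -1.62 (adjusted p = 3.79e-28) and the apoptosis inhibitor gene BIRC3 at -1.12 (adjusted p = 8.68e-14), and no other gene of the list passed in that table. For delta-conserved, the authors' deposited table had PER1 at -1.53 and BIRC3 at -1.03, and MT2A at 0.38, DDIT4 at 0.33 and ERRFI1 at 0.25 (named after its value was seen) were higher. The authors' deposited table for the conserved region had none that passed. Of all entries 0.882%, 2.26% and 0.0175% passed in the tables for SLNCR1, delta-conserved and the conserved region. By limma 1 was higher and 4 lower with SLNCR1, 0 passed for the conserved region, and 4 were higher and 3 lower with delta-conserved, where 11.4%, 0.00622% and 10.4% of all genes passed. Between SLNCR1 and the conserved region 0 were higher and 7 lower, where 11.5% passed, with log2 differences of -1.69 for PER1, -1.51 for BIRC3, -0.63 for TSC22D3 and -0.55 for FOXO3. Between the conserved region and delta-conserved 4 were higher and 1 lower, where 6.9% passed, with PER1 at 1.60, BIRC3 at 1.41, ANGPTL4 at -1.02 and TNFAIP3 at 0.40. PER1 without SLNCR1 library b differed from vector by -1.68 and BIRC3 by -1.09 (log2, limma). Against the conserved region the log2 difference was then -1.74 for PER1, -1.47 for BIRC3, -0.47 for TSC22D3 and -0.49 for FOXO3.

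Paralogs and partners of the 9 genes were 58, of which 50 had a mean of at least 10 over all libraries. ZBTB2, a relative of ZBTB10, was lower with SLNCR1 at a log2 fold change of -0.61 (adjusted p = 0.000913) in the authors' deposited table. For delta-conserved, ZBTB2 in the authors' deposited table was at -0.60 and ZBTB17 at -0.52, and 2 immunophilin genes related to FKBP5 were higher, FKBP1A at 0.33 and FKBP8 at 0.27. None passed in the authors' deposited table for the conserved region. Of all entries, 0.882%, 2.26% and 0.0175% passed there for SLNCR1, delta-conserved and the conserved region. By limma 3 were higher and 5 lower with SLNCR1, 0 passed for the conserved region, and 4 were higher and 4 lower with delta-conserved, where 11.4%, 0.00622% and 10.4% of all genes passed. Against the conserved region SLNCR1 had 2 higher and 8 lower genes (11.5% of all genes passed), led by ZBTB2 at a log2 difference of -0.70, the elongation complex genes AFF4 at -0.56 and AFF1 at -0.41 and the GC-box factor gene SP4 at -0.49. The conserved region had 5 higher and 3 lower genes against delta-conserved (6.9% passed), led by ZBTB20 at 1.37, ZBTB2 at 0.68, ZBTB17 at 0.57 and MLLT3 at -0.38. ZBTB2 without SLNCR1 library b differed from vector by -0.57 (log2, limma). Against the conserved region the log2 difference was then -0.65 for ZBTB2, -0.28 for AFF4, -0.31 for SP4 and -0.12 for AFF1. No gene of these 4 lists passed between SLNCR1 and delta-conserved by limma, and 0 of all 16067 genes did.

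**Figure D4:**
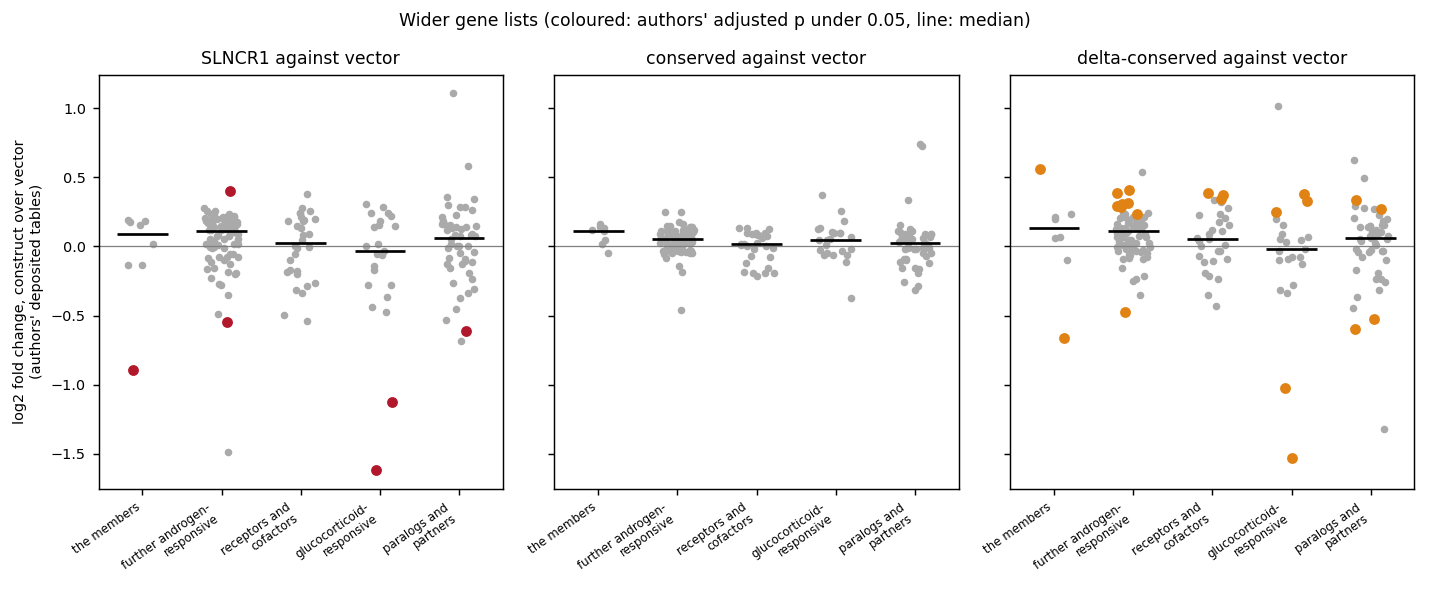
Log2 fold changes over vector in the authors' deposited tables for the 9 genes' list and the 4 wider lists, a point per gene, coloured where the authors' adjusted p was under 0.05, with the median as a line, for SLNCR1, conserved and delta-conserved from left to right. Coloured points are absent in the conserved panel, and PER1 at -1.62 and -1.53 is the lowest coloured point in the other 2 panels.

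The genes whose pattern over the 8 libraries was most like that of ZBTB10 and NDRG1 were found among 11211 genes with a mean of at least 100, as Pearson r of log2(normalized count + 1). For ZBTB10 they were ZNF227 (r = 0.996), ZSWIM6 (0.993) and KCNT2 (0.992), and for NDRG1 they were FUT11 (0.964), UBQLN2 (0.964) and CDCP1 (0.962). ZNF227 had 303.9 and 253.9 normalized counts with SLNCR1, 424.9 and 425.0 in conserved libraries, 317.1 and 311.9 with delta-conserved and 397.6 and 387.3 with vector. Among the other expressed genes of the 9, FKBP5 was the most like ZBTB10 (r = 0.929) and TPD52 the least (-0.668). These correlations describe 8 libraries in 4 groups that share size factors, and carry no p.

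**Figure D5:**
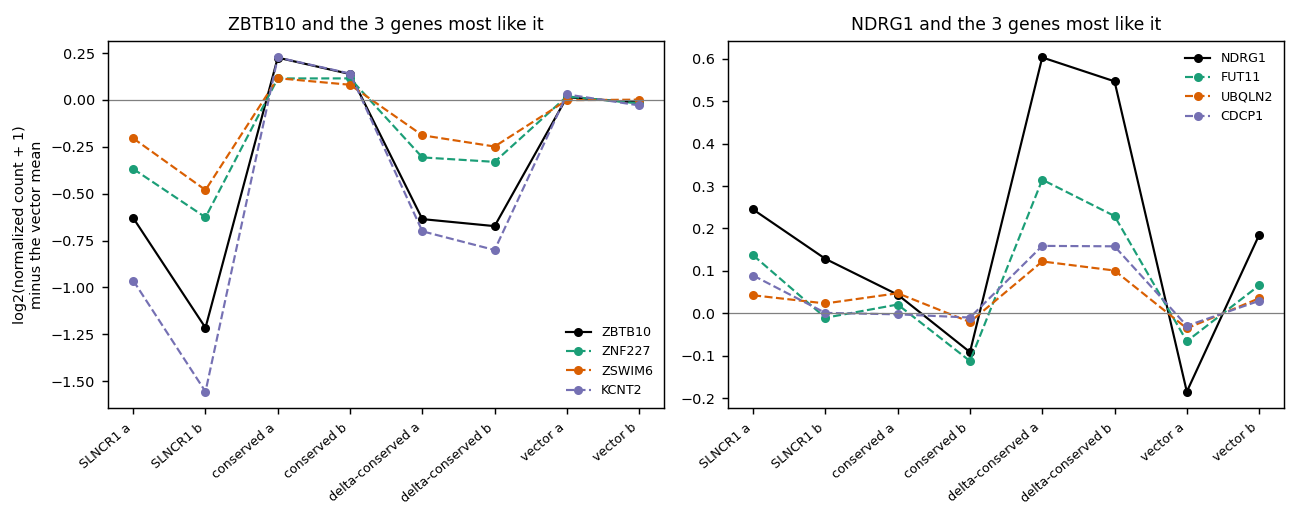
Log2(normalized count + 1) minus the vector mean in each of the 8 libraries, for ZBTB10 (left panel) and NDRG1 (right panel) and the 3 genes with the highest Pearson r to each, with lines only joining the points of a gene. The SLNCR1 and delta-conserved libraries lie below 0 for ZBTB10 and ZNF227 (r = 0.996), and the delta-conserved libraries are the highest for NDRG1.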

How the data were processed

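Per the labels' protocols, the 8 A375 libraries (4 groups of 2) were poly(A)-selected and prepared with NEBNext Ultra reagents. The genome build hg19 and the tools STAR, featureCounts and DESeq are named in the submitters' processing notes. Not given in the sources used here were their versions and the annotation release. The signal columns of the 3 deposited tables are the authors' group means of gene reads after division by size factors, each table normalized on its own. The fold change in the deposited tables is the authors' ratio of construct to vector mean, and its log2 was computed from it. Each deposited table also holds p-values and adjusted p-values from the authors' test.

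Since reads are whole numbers, the reads of each library could be solved for from a mean of 2, with a single solution for 99.981 to 100% of genes with reads in a group. Which replicate number belongs to which library cannot be read from the values. Recovered reads were scaled by median-of-ratios size factors over 8 libraries and tested with limma 3.58.1 in R 4.3.3 on log2(normalized count + 1), with a variance trend, over 16067 genes whose mean reached at least 10, and Benjamini-Hochberg adjustment over them. Residual degrees of freedom were 4, with a prior worth 13.6. The trend over all genes therefore weighed more in each limma variance than the gene's own libraries. Each gene had a single spread for all groups. Adding 1 understates changes of low genes. Count-based tests were not used, because the recovered reads are not a deposited unit. Recovery was checked on simulated reads, where 3872 of 3872 and 3620 of 3620 single solutions were correct. In simulated counts with the same spread in all groups, limma recovered 29.5 to 40.6% of 1.5-fold changes. In the data the spread between paired libraries was widest for SLNCR1 and narrowest for conserved, which that simulation does not cover. Other steps ran in Python 3.11.15 (pandas 2.3.3, numpy 2.4.6) and plots in matplotlib 3.10.9.

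The 9 genes and the other lists were chosen with earlier results of these data known. Each of the 9 is named. From the other lists up to 4 genes per list and comparison are named, those that pass with the largest change first, by the authors' table against vector and by limma between constructs. For likeness the 3 genes with the highest r are named. 1 further gene in the naming rule is not reported here. Melanoma, prostate, keratinocyte, fibroblast, leukocyte and endothelial markers were also counted. No keratinocyte, leukocyte, endothelial or prostate marker passed in the authors' deposited tables, and SOX10 and MCAM of the melanoma list were higher with delta-conserved there.

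Alternatives were other scalings, pseudocounts, filters, variance models and fits, and leaving out each library.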

Additional observations from a re-analysis of the deposited data

How the results depend on the processing

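No paired analysis was possible because the deposited columns are group means that carry no replicate numbers. Of 768 values of single genes under the alternatives, 720 kept their direction and side of the threshold, 17 no longer passed, 16 newly passed and 15 changed sign; the causes were not tested. With no variance trend 0 of the genes passed for SLNCR1 against vector, where 247 of 16067 did over all genes. For delta-conserved against vector and conserved against delta-conserved 0 passed as well, where 207 and 311 did. With only the 2 groups compared in the fit 5 passed for delta-conserved against vector, where 2366 of 16120 did over all genes. Leaving out each library in turn gave 1 to 4 genes for SLNCR1 against vector, 1 to 5 for delta-conserved against vector, 0 to 3 for SLNCR1 against delta-conserved, 2 for conserved against delta-conserved and 1 to 3 for SLNCR1 against conserved; a library left alone in its group was assumed to vary like the other groups. The 4 for SLNCR1 came without its library a, as did the 3 in each contrast of SLNCR1 with another construct, where over all genes 4329 passed against vector, 4014 against conserved and 1224 against delta-conserved. Over all genes, leaving out a library gave 317 to 4329 calls for SLNCR1 against vector and 271 to 2812 for delta-conserved against vector. With library totals as the scaling, log2 values changed sign to -0.0106 for ELL2 (SLNCR1 against vector), -0.0068 for ABCC4 (conserved against vector) and 0.0047 for ACSL3 (SLNCR1 against delta-conserved), and calls over all genes with delta-conserved were 503 higher and 1148 lower, where the main scaling gave 832 and 842. Leave-one-out ranges that crossed 0 for SLNCR1 against vector were -0.0373 to 0.0812 (ELL2) and -0.33 to 0.0330 (ABCC4), and for conserved against vector -0.20 to 0.16 (NDRG1, 0.0443 without conserved library b). For SLNCR1 against delta-conserved they were -0.16 to 0.0602 (FKBP5), -0.56 to 0.0227 (ZBTB10), -0.0820 to 0.0340 (ACSL3) and -0.0777 to 0.0164 (TPD52), and for SLNCR1 against conserved -0.0531 to 0.0533 (SORD) and -0.36 to 0.0016 (ABCC4). None of these changed a call to the opposite direction. Depth limits TMPRSS2, which 1 read of 8 libraries measures.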
